A study of Mus musculus with 9 samples.

Results

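The E2F family and its DP partners were examined in whole hearts of perinatal mice by RNA-seq. The members were the 8 E2F genes, *E2f1* to *E2f8*, and the DP genes *Tfdp1* and *Tfdp2*, taken by gene symbol, and all 10 were found among the 48820 genes of the deposited table. E2F proteins are transcription factors that bind the promoters of genes needed for DNA synthesis and mitosis, and most of them bind DNA as dimers with a DP protein. Pocket proteins of the RB family bind these dimers and keep their target genes off until cyclin-dependent kinases phosphorylate the pocket protein. In the heart, cardiomyocytes proliferate before birth and largely leave the cell cycle in the days after it, and the balance of activating and repressing E2F complexes is known as part of that exit.

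The hearts came from C57BL/6J mice of wild-type genotype that received no treatment, and all 9 hearts were labelled male. Embryos of day 18.5 (E18.5d), pups of postnatal day 1 (P1d) and pups of postnatal day 7 (P7d) gave 3 hearts each, which the labels call biological replicates. Levels are in FPKM as deposited by the authors, the fragments on a gene scaled to its length and to the mapped fragments of its library. The table gives no fragment counts, but the spacing of its low values corresponded to between 25250000 and 37500000 fragments in the E18.5d hearts, between 27750000 and 29500000 in the P1d hearts and between 35500000 and 45500000 in the P7d hearts. At these depths 3 fragments on a gene of 1 kb amount to 0.0659 to 0.119 FPKM, and the lowest estimate for any member in any heart was 94 fragments, for *E2f1* in P1d replicate 1. These figures cover counting error only.

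The label of heart tissue was checked against 8 cardiomyocyte markers, which were all expressed in every heart and summed to between 22605 and 26163 FPKM. The most abundant of them over all 9 hearts, cardiac actin *Actc1*, was between 5904 and 7872 FPKM. The label of sex did not hold for 4 hearts. *Xist*, the RNA that coats the inactive X chromosome in females, was 82.6 and 97.0 FPKM in E18.5d replicates 1 and 3 and 58.0 and 70.0 FPKM in P7d replicates 2 and 3, and no more than 0.11 FPKM elsewhere. Of the genes on the Y chromosome, *Eif2s3y*, *Uty*, *Kdm5d* and *Ddx3y* were listed at 0 in the same 4 hearts and at 9.74 FPKM or more in the other 5. Whether the label or the identity of these hearts is at fault was not tested, and the stage labels were taken as given. The myosin gene *Myh6*, looked at for this reason, was between 3189 and 3260 FPKM at E18.5d, between 6408 and 6958 FPKM at P1d and between 7980 and 8564 FPKM at P7d, so that each of the 4 hearts lay with the others of its labelled stage. Results for the members are given with all 9 hearts, with the presence of *Xist* as a covariate, and without these 4 hearts. The last choice leaves 1 heart at E18.5d and 1 at P7d, so that the spread comes from the 3 P1d hearts alone, the lone hearts are assumed to vary like them, and P7d against E18.5d is 1 heart against 1.

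Differences were tested with limma on log2(FPKM + 1) over the 13618 genes whose mean reached 1 FPKM, all 10 members among them, with Benjamini-Hochberg adjustment over all genes tested and a threshold of 0.05. Log2 changes are on this scale, which makes the change of a gene with a low level smaller than the ratio of its FPKM values. The 3 comparisons share stages, so each member has its own values in each of them and no agreement between comparisons is counted. In whole hearts, fewer cells of a type and less RNA per cell cannot be told apart.

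The comparison of P1d with E18.5d addresses what changes across birth. Of the 10 members, 7 fell and 1 rose, whereas of all genes tested 46.0% passed the threshold, 27.6% lower and 18.4% higher. The members that fell were *E2f1*, *E2f2*, *E2f4*, *E2f6*, *E2f7*, *E2f8* and *Tfdp1*, and the member that rose was *Tfdp2*. The median log2 change of the 10 members was -0.56, beside -0.06 for all genes tested. Between P7d and E18.5d, 6 members were lower and 0 higher by limma, beside 49.4% of all genes, 36.9% lower and 12.5% higher. At an unadjusted p under 0.05, 7 members were lower and 0 higher, beside 5719 and 1971 of the 13618 genes. The medians were -0.28 for the members and -0.17 for all genes. Between P7d and P1d, 5 members were higher and 1 was lower, beside 44.2% of all genes, 15.5% higher and 28.6% lower, with medians of 0.38 and -0.09.

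The levels of all genes depended on how the hearts were scaled to each other. Scaling by the median of ratios moved the median change of all genes between P7d and E18.5d from -0.17 to 0.01, between P7d and P1d from -0.09 to 0.02, and between P1d and E18.5d from -0.06 to 0.01. With it the genes that passed divided into 3215 higher and 3031 lower for P1d against E18.5d (2505 and 3755 as deposited). For P7d against E18.5d they divided into 3159 higher and 2545 lower (1706 and 5025 as deposited), and for P7d against P1d into 3194 and 2473 (2112 and 3901 as deposited). Relative to this scaling, the change of *E2f1* between P7d and E18.5d was -0.48, that of *E2f7* was -0.44 and that of *E2f8* was -0.99. The median of the 10 members between P7d and E18.5d was -0.11 by this scaling, with 4 of them lower past the threshold. The members whose direction or call depended on it are named with their values.

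**Figure D1:**
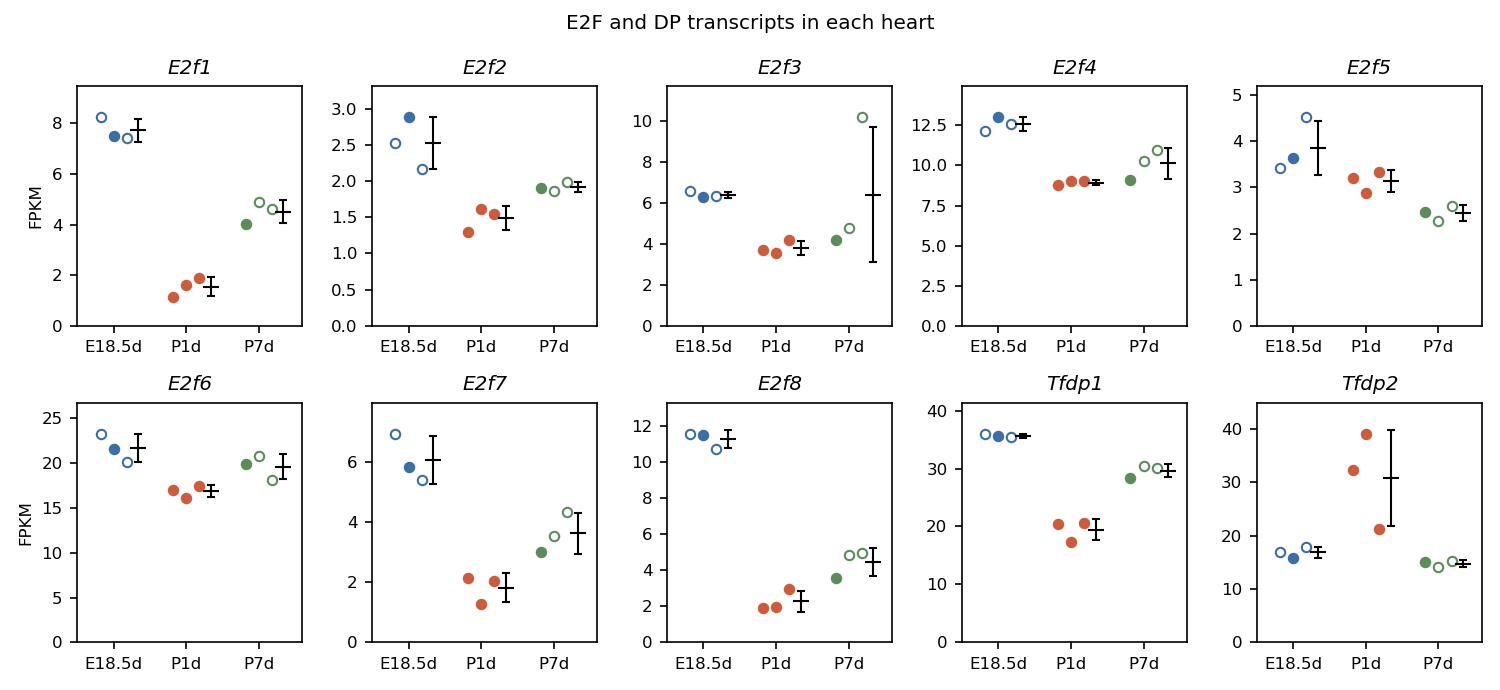
Expression of the 10 members in FPKM (vertical axis, from 0) in each heart of E18.5d, P1d and P7d, with black bars for the mean and SD of 3 hearts and open circles for the 4 hearts with *Xist*. *E2f1* fell from a mean of 7.71 to 1.55 FPKM at P1d and *Tfdp2* rose from 16.9 to 30.9 FPKM, and in P7d replicate 3 *E2f3* was 10.2 FPKM.

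*E2f1*, *E2f2* and *E2f3* encode the activators of the family, which bind the promoters of S-phase genes and are held in check by RB itself. The expression of *E2f1* was 8.23, 7.48 and 7.42 FPKM in the E18.5d hearts, 1.16, 1.6 and 1.89 FPKM in the P1d hearts and 4.01, 4.88 and 4.63 FPKM in the P7d hearts. No heart of one stage overlapped with a heart of another, and the P1d hearts were the lowest and the E18.5d hearts the highest. The mean at P1d was 20.1% of that at E18.5d, a log2 change of -1.78 (95% interval -2.04 to -1.52; limma, Benjamini-Hochberg adjusted p = 5.92e-06). Between P1d and P7d *E2f1* rose 2.91-fold, a log2 change of 1.12 (0.86 to 1.38; limma, Benjamini-Hochberg adjusted p = 0.000106), and the P7d mean was 58.5% of the E18.5d mean (log2 change -0.66, limma, Benjamini-Hochberg adjusted p = 0.00137). *E2f1* had the largest rise between P1d and P7d among the 10 members.

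The expression of *E2f2* was 2.53, 2.88 and 2.16 FPKM at E18.5d, 1.30, 1.62 and 1.55 FPKM at P1d and 1.91, 1.86 and 1.99 FPKM at P7d. The 3 stages did not overlap, and *E2f2* had the lowest mean of the 10 members at every stage. It fell between E18.5d and P1d to 59.1% of its mean, a log2 change of -0.50 (-0.74 to -0.26; limma, Benjamini-Hochberg adjusted p = 0.00444). Its changes between P7d and E18.5d (-0.27, limma, Benjamini-Hochberg adjusted p = 0.0638) and between P7d and P1d (0.23, limma, Benjamini-Hochberg adjusted p = 0.107) did not pass. Scaled by the median of ratios, the latter was 0.32 and passed (limma, Benjamini-Hochberg adjusted p = 0.0334), and over all alternatives its adjusted p ran from 0.0298 to 0.442. Without E18.5d replicate 3 the change between P7d and E18.5d passed as well (limma, Benjamini-Hochberg adjusted p = 0.0356, the lowest of a range up to 0.481).

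The expression of *E2f3* was 6.56, 6.27 and 6.33 FPKM at E18.5d, 3.71, 3.54 and 4.17 FPKM at P1d and 4.21, 4.77 and 10.2 FPKM at P7d. All P1d hearts were below all E18.5d hearts, while P7d replicate 3 stood above every other heart and made P7d overlap with E18.5d. With the fit described above *E2f3* passed in no comparison: the log2 changes were -0.62 between P1d and E18.5d (limma, Benjamini-Hochberg adjusted p = 0.055), -0.09 between P7d and E18.5d (0.782) and 0.53 between P7d and P1d (0.0931). Without P7d replicate 3 the change between P1d and E18.5d was the same size and passed (limma, Benjamini-Hochberg adjusted p = 0.000682). It also passed with a pseudocount of 0.1, at a mean of 5 FPKM or more, with the replicate number as a block, with only these stages fitted and without P7d replicate 1 (limma, Benjamini-Hochberg adjusted p = 0.0472, 0.0489, 0.0431, 0.00171 and 0.0372). Without P7d replicate 3 the change between P7d and E18.5d was -0.43 and passed too (limma, Benjamini-Hochberg adjusted p = 0.00739), whereas it was above 0 under each of the 3 other scalings and without P7d replicate 1 or 2. The adjusted p of these comparisons ran over the alternatives from 0.000682 to 0.29 and from 0.00739 to 0.905. Without P7d replicate 1 the change of *E2f3* between P7d and P1d was 0.74 and passed (limma, Benjamini-Hochberg adjusted p = 0.0336, in a range from there to 0.66). P7d replicate 3 was at least 2-fold above both other hearts of its stage in 88 of the 13618 genes (0.646%), and *E2f3* was the one member among them. The same count was between 70 and 106 genes in the other 8 hearts, with no member in any of them. This count was chosen after the values of *E2f3* were seen.

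*E2f4*, *E2f5* and *E2f6* encode repressors. E2F4 and E2F5 bind mainly the pocket proteins p107 and p130 and make up the E2F of resting cells, whereas E2F6 lacks the pocket-binding domain and works with a Polycomb complex. The expression of *E2f4* was 12.1, 13.0 and 12.6 FPKM at E18.5d, 8.76, 9.04 and 9.01 FPKM at P1d and 9.12, 10.3 and 10.99 FPKM at P7d. No stages overlapped, although the gap between the highest P1d and the lowest P7d heart was small. *E2f4* fell between E18.5d and P1d to 71.1%, a log2 change of -0.45 (-0.61 to -0.28; limma, Benjamini-Hochberg adjusted p = 0.000996). As deposited it was lower at P7d than at E18.5d (log2 change -0.29, limma, Benjamini-Hochberg adjusted p = 0.00941), but not past the threshold when scaled by the median of ratios (-0.09, limma, Benjamini-Hochberg adjusted p = 0.346, the highest of a range from 0.00789). The change between P7d and P1d was 0.16 as deposited (limma, Benjamini-Hochberg adjusted p = 0.104) and 0.28 by the median of ratios, where it passed (0.0147, in a range from 0.0129 to 0.914). Without P7d replicate 1 that change passed as well.

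The expression of *E2f5* was 3.43, 3.63 and 4.52 FPKM at E18.5d, 3.20, 2.87 and 3.34 FPKM at P1d and 2.47, 2.27 and 2.6 FPKM at P7d. It was the one member with stages that did not overlap and stood in the order E18.5d, P1d, P7d from high to low. *E2f5* fell between E18.5d and P7d to 63.4% of its mean, a log2 change of -0.49 (-0.72 to -0.26; limma, Benjamini-Hochberg adjusted p = 0.00381). The steps in between did not pass, with -0.23 from E18.5d to P1d (limma, Benjamini-Hochberg adjusted p = 0.101) and -0.26 from P1d to P7d (limma, Benjamini-Hochberg adjusted p = 0.0664). The latter passed without E18.5d replicate 3 (limma, Benjamini-Hochberg adjusted p = 0.0416, the lowest of a range up to 0.367).

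The expression of *E2f6* was 23.2, 21.6 and 20.1 FPKM at E18.5d, 16.9, 16.1 and 17.4 FPKM at P1d and 19.9, 20.8 and 18.1 FPKM at P7d. The P1d hearts were below all others, and E18.5d and P7d overlapped. *E2f6* had the highest level of the 8 E2F genes at every stage. It fell to 77.8% between E18.5d and P1d, a log2 change of -0.34 (-0.51 to -0.18; limma, Benjamini-Hochberg adjusted p = 0.00469). Between P1d and P7d the change was 0.20 and just passed (limma, Benjamini-Hochberg adjusted p = 0.0495), but it kept that call in 8 of 19 alternatives only, with an adjusted p from 0.00557 to 0.289. It was lost, among others, on leaving out any of E18.5d replicate 2, P1d replicates 1, 2 or 3 and P7d replicates 1 or 2. Between P7d and E18.5d the change of *E2f6* was -0.14 as deposited (limma, Benjamini-Hochberg adjusted p = 0.15) and 0.06 by the median of ratios, neither past the threshold.

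*E2f7* and *E2f8* encode the atypical E2Fs, which have a pair of DNA-binding domains, bind without DP and repress the G1/S genes, *E2f1* among them, late in S phase. The expression of *E2f7* was 6.93, 5.82 and 5.39 FPKM at E18.5d, 2.15, 1.28 and 2.04 FPKM at P1d and 3.00, 3.53 and 4.33 FPKM at P7d. The expression of *E2f8* was 11.6, 11.5 and 10.7 FPKM at E18.5d, 1.89, 1.98 and 2.95 FPKM at P1d and 3.58, 4.84 and 4.96 FPKM at P7d. For both genes the stages did not overlap, with E18.5d highest, P1d lowest and P7d in between. *E2f8* and *E2f1* had the largest falls of the 10 members across birth, by the ratio of means as by log2 change, and *E2f8* had a P1d mean of 20.2% of the E18.5d mean and a log2 change of -1.92 (-2.23 to -1.61; limma, Benjamini-Hochberg adjusted p = 9.54e-06). *E2f7* fell to 30.1%, a log2 change of -1.33 (-1.67 to -0.98; limma, Benjamini-Hochberg adjusted p = 0.000142). Both rose again between P1d and P7d, *E2f7* by 0.72 and *E2f8* by 0.74 on the log2 scale (limma, Benjamini-Hochberg adjusted p = 0.00493 and 0.00238). At P7d both were still below E18.5d, *E2f8* at 39.6% (log2 change -1.18, limma, Benjamini-Hochberg adjusted p = 0.000143) and *E2f7* at 59.9% (log2 change -0.61, limma, Benjamini-Hochberg adjusted p = 0.00894).

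The DP proteins, encoded by *Tfdp1* (DP1) and *Tfdp2* (DP2), bind E2F1 to E2F6 and complete their DNA-binding surface. The expression of *Tfdp1* was 36.0, 35.6 and 35.4 FPKM at E18.5d, 20.4, 17.3 and 20.6 FPKM at P1d and 28.3, 30.4 and 30.1 FPKM at P7d. The stages of *Tfdp1* did not overlap, with P1d lowest. The expression of *Tfdp2* was 16.9, 15.8 and 17.8 FPKM at E18.5d, 32.3, 39.1 and 21.3 FPKM at P1d and 15.1, 14.1 and 15.2 FPKM at P7d. The stages of *Tfdp2* did not overlap either, with P1d highest and P1d replicate 3 the closest to the other stages. *Tfdp1* fell to 54.5% across birth, a log2 change of -0.85 (-1.01 to -0.69; limma, Benjamini-Hochberg adjusted p = 2.29e-05), and rose by 0.59 between P1d and P7d (0.43 to 0.75; limma, Benjamini-Hochberg adjusted p = 0.000231). *Tfdp2* moved the other way in both steps. It rose to 183% across birth, a log2 change of 0.80 (0.41 to 1.19; limma, Benjamini-Hochberg adjusted p = 0.00478), and changed by -0.97 between P1d and P7d (-1.36 to -0.58; limma, Benjamini-Hochberg adjusted p = 0.00187). Without P1d replicate 2 its rise was 0.61 and without P1d replicate 3 it was 1.03, and it passed in both cases (limma, Benjamini-Hochberg adjusted p = 0.0107 and 6.33e-05).

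Between P7d and E18.5d *Tfdp1* was lower by a log2 change of -0.26 as deposited (limma, Benjamini-Hochberg adjusted p = 0.0133), but the change was -0.05 by the median of ratios and did not pass (limma, Benjamini-Hochberg adjusted p = 0.594). It did not pass without P7d replicate 1 either (-0.23, limma, Benjamini-Hochberg adjusted p = 0.0507). For *Tfdp2* the change between P7d and E18.5d was -0.18 as deposited (limma, Benjamini-Hochberg adjusted p = 0.422) and 0.02 by the median of ratios, and neither passed. With only these stages fitted it passed as deposited (limma, Benjamini-Hochberg adjusted p = 0.0476, the lowest of a range up to 0.938). The ratio of *Tfdp1* to *Tfdp2* FPKM within each heart, chosen after their values were seen, was 2.12, 2.25 and 1.99 at E18.5d, 0.632, 0.443 and 0.965 at P1d and 1.88, 2.16 and 1.98 at P7d. *Tfdp1* was thus above *Tfdp2* in every heart of E18.5d and P7d and below it in every heart of P1d. This ratio, taken from the deposited FPKM, does not change when each heart is scaled by 1 factor, but can change under quantile normalization. Its means were 2.12 ± 0.13, 0.680 ± 0.264 and 2.00 ± 0.143 (SD, n = 3). The summed level of both DP genes was 52.5 ± 0.986 FPKM in the E18.5d hearts, 50.3 ± 7.58 FPKM in the P1d hearts and 44.4 ± 0.949 FPKM in the P7d hearts (SD, n = 3). In this sum the E18.5d and P7d hearts did not overlap, and the P1d hearts overlapped with both.

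**Figure D2:**
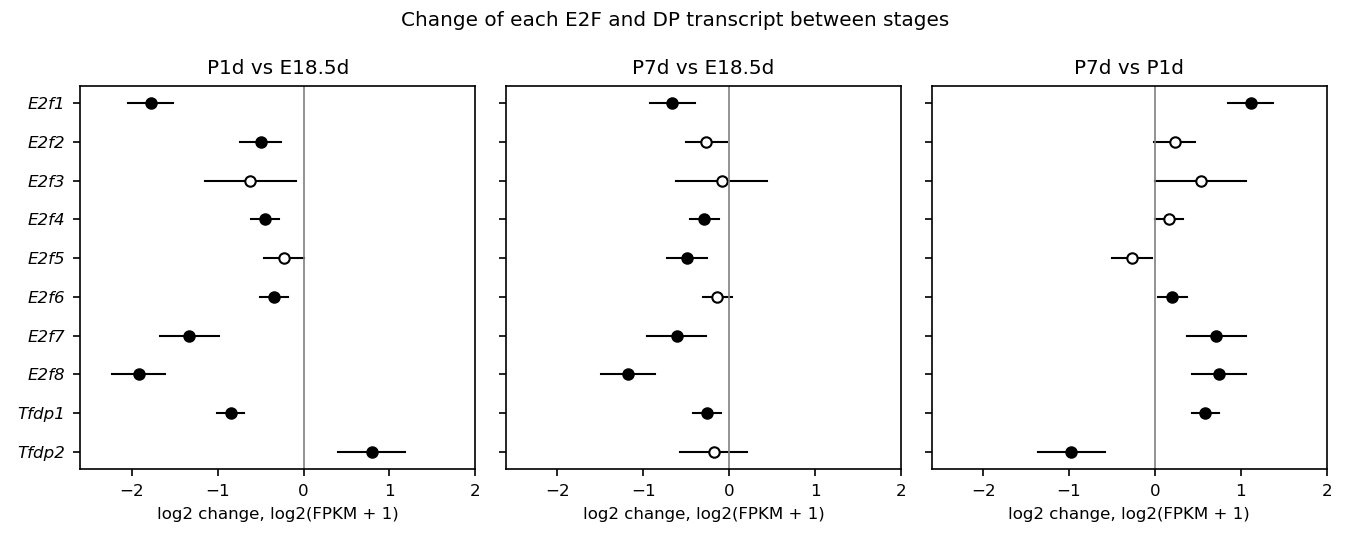
Log2 change of FPKM + 1 of each member in the 3 comparisons (horizontal axis, with the 95% interval), with filled points for changes past an adjusted p of 0.05. From E18.5d to P1d *E2f8* (-1.92) and *E2f1* (-1.78) lie farthest below 0 and *Tfdp2* (0.80) alone lies above it.

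The order of the levels changed across birth. At E18.5d it was *Tfdp1*, *E2f6*, *Tfdp2*, *E2f4*, *E2f8*, *E2f1*, *E2f3*, *E2f7*, *E2f5* and *E2f2* from high to low, and of the neighbours only *E2f3* and *E2f7* overlapped. At P1d *Tfdp2* led, followed by *Tfdp1* and *E2f6*, which overlapped, and then by *E2f4* and *E2f3*. Below them at P1d came *E2f5*, *E2f8*, *E2f7*, *E2f1* and *E2f2*, each overlapping with the next. At P7d *Tfdp1*, *E2f6* and *Tfdp2* led again without overlap. The next at P7d were *E2f4*, *E2f3*, *E2f1*, *E2f8* and *E2f7*, each overlapping with its neighbour, and *E2f5* and *E2f2* stood apart at the bottom.

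The shares of the activator, repressor and atypical classes in the summed FPKM of *E2f1* to *E2f8* were also computed within each heart, after the values were seen. The sum itself was 72.0 ± 2.71 FPKM in the E18.5d hearts, 39.9 ± 2.25 FPKM in the P1d hearts and 53.0 ± 4.80 FPKM in the P7d hearts (SD, n = 3). *E2f4* to *E2f6* held 52.0%, 52.9% and 53.7% of it in the E18.5d hearts, 73.9%, 73.7% and 70.3% in the P1d hearts and 65.3%, 62.7% and 54.8% in the P7d hearts. The repressor share was thus highest in the P1d hearts, with no overlap between stages, although the summed level of these 3 genes was lowest there (a mean of 28.9 FPKM, beside 38.1 FPKM in E18.5d hearts and 32.2 FPKM in P7d hearts). *E2f7* and *E2f8* held 24.8%, 24.0% and 23.3% at E18.5d, 10.3%, 8.56% and 11.8% at P1d and 13.7%, 15.7% and 16.1% at P7d, again without overlap. *E2f1* to *E2f3* held 23.2%, 23.0% and 23.0% at E18.5d, 15.8%, 17.8% and 17.95% at P1d and 21.0%, 21.6% and 29.1% at P7d, where P7d replicate 3 with its high *E2f3* was the highest.

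The calls of the members were recomputed for the 4 hearts with *Xist*. With *Xist* as a covariate 8, 6 and 5 members passed in P1d against E18.5d, P7d against E18.5d and P7d against P1d, beside 4500, 6451 and 3905 of the 13618 genes, and the one call lost was that of *E2f6* between P7d and P1d (0.21, limma, Benjamini-Hochberg adjusted p = 0.134). Between P1d and E18.5d the covariate gave log2 changes of -1.70 for *E2f1* (limma, Benjamini-Hochberg adjusted p = 0.000135), -1.81 for *E2f8* (0.000202), -0.81 for *Tfdp1* (0.000509) and 0.83 for *Tfdp2* (0.0228). It gave -1.21 for *E2f7* (limma, Benjamini-Hochberg adjusted p = 0.00202), -0.57 for *E2f2* (0.0136), -0.41 for *E2f4* (0.012) and -0.35 for *E2f6* (0.0254). Without the 4 hearts, *E2f1* (-1.74), *E2f7* (-1.29), *E2f8* (-1.95) and *Tfdp1* (-0.84) passed between P1d and E18.5d (limma, Benjamini-Hochberg adjusted p = 0.0268, 0.0499, 0.0254 and 0.0429). The remaining calls were not kept, with -0.64 for *E2f2* (limma, Benjamini-Hochberg adjusted p = 0.0874), -0.49 for *E2f4* (0.0777), -0.34 for *E2f6* (0.136) and 0.88 for *Tfdp2* (0.164). In the other 2 comparisons, which without these hearts rest on 1 P7d heart, no member kept its call. The median log2 change of the members was then -0.44 between P7d and E18.5d and 0.23 between P7d and P1d. Over all genes these medians were -0.17 and -0.08. The changes without these hearts between P7d and E18.5d were -0.76 for *E2f1*, -0.77 for *E2f7*, -1.45 for *E2f8*, -0.42 for *E2f5*, -0.47 for *E2f4* and -0.32 for *Tfdp1*. Between P7d and P1d they were 0.98 for *E2f1*, 0.52 for *E2f7*, 0.50 for *E2f8*, 0.52 for *Tfdp1*, 0.23 for *E2f6* and -0.95 for *Tfdp2*. Of all genes 823, 194 and 179 passed in the 3 comparisons with so few hearts.

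The pocket proteins, the DREAM complex, in which E2F4 or E2F5 represses cell-cycle genes, and the MMB complex, which shares the MuvB core and activates G2/M genes, were followed as a list of 10 genes. Between E18.5d and P1d 5 of them fell and 1 rose (median log2 change -0.50), beside 27.6% and 18.4% of all genes. Between P1d and P7d 4 rose and 2 fell (median 0.05), beside 15.5% and 28.6% of all genes. *Rbl2*, which encodes the p130 of resting cells, was 16.2, 16.5 and 16.8 FPKM at E18.5d, 29.2, 32.0 and 18.1 FPKM at P1d and 14.7, 12.1 and 14.8 FPKM at P7d, and like *Tfdp2* it was highest in P1d replicate 2 and lowest of its stage in P1d replicate 3. *Rbl2* rose by 0.61 (limma, Benjamini-Hochberg adjusted p = 0.0186) and changed by -0.85 at P7d (0.00406). Its rise did not pass with *Xist* as a covariate (limma, Benjamini-Hochberg adjusted p = 0.0871), without the 4 hearts, or without E18.5d replicate 1 or P1d replicates 1 or 2 (0.051, 0.0649 and 0.0613). *Rbl1* (p107), *Mybl2* and *Foxm1* changed by -1.54, -1.42 and -1.63 between E18.5d and P1d and by 0.96, 0.95 and 0.77 between P1d and P7d, all past the threshold. *Rbbp4* fell by 0.39 between P1d and P7d. *Rb1* itself was between 5.02 and 8.26 FPKM, its stages overlapped, and its log2 change across birth was -0.04 (limma, Benjamini-Hochberg adjusted p = 0.862).

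Upstream of the pocket proteins stand the G1 cyclins, their kinases and the kinase inhibitors. Of 15 such genes 13 were tested, of which 10 fell and 2 rose between E18.5d and P1d (27.6% and 18.4% of all genes) and 6 rose and 3 fell between P1d and P7d (15.5% and 28.6% of all genes). Cyclin E gene *Ccne2*, itself an E2F target, was 17.4, 15.2 and 16.5 FPKM at E18.5d, 0.97, 2.30 and 1.54 FPKM at P1d and 4.99, 6.36 and 5.46 FPKM at P7d. It changed by -2.77 and then 1.37 (limma, Benjamini-Hochberg adjusted p = 3.78e-06 and 0.000232). Across birth *Ccne1* fell by 1.51 and *Cdkn2d* by 1.00, while the inhibitor genes *Cdkn1a* and *Cdkn1b* rose by 0.54 and 0.41. At P7d *Ccnd1* and *Ccnd2* were 0.87 and 0.84 above P1d, and *Cdkn1c*, *Cdkn1b* and *Ccnd3* were lower than at P1d by log2 changes of -1.45, -0.57 and -0.57. The rise of *Cdkn1b* across birth did not pass with *Xist* as a covariate, without the 4 hearts or without E18.5d replicate 1.

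The 40 textbook G1/S targets of E2F all fell between E18.5d and P1d, with a median log2 change of -1.51 and 0 higher by limma, also at an unadjusted p under 0.05, where 27.6% of all genes fell and 18.4% rose. Between P1d and P7d 34 of them rose and 0 fell by limma, adjusted or not, with a median of 0.72, where 15.5% of all genes rose and 28.6% fell. The 6 others were *Cdc25a*, *Fbxo5*, *Gins1*, *Orc1*, *Rfc3* and *Rpa2*. At P7d all 40 were below E18.5d without overlap of hearts, as were 6209 of the 13618 genes tested. Of the 40, 36 were lower past the threshold (median -0.64), beside 36.9% of all genes. By the median of ratios 38 of the 40 were lower at P1d and 27 at P7d than at E18.5d, and 36 rose between P1d and P7d, where of all genes 3031 and 2545 were lower and 3194 rose. The largest changes were those of *Ccne2*, *Uhrf1* (-2.11) and *Cdc6* (-1.98) across birth and of *Uhrf1* (1.37), *Ccne2* and *Mcm2* (1.36) between P1d and P7d. With *Xist* as a covariate 38, 35 and 29 of the 40 passed, beside 4500, 6451 and 3905 of the 13618 genes. Without the 4 hearts fewer of the 40 passed. Their medians were then -1.46, -0.72 and 0.61, beside -0.08, -0.17 and -0.08 for all genes. The 22 G2/M genes of the later MMB and FOXM1 wave also all fell across birth (median -1.66), beside 27.6% of all genes, led by *Top2a* (-2.35), *Bub1* (-2.22) and *Aurka* (-1.96). Of these 22 genes 18 rose by P7d (median 0.66), beside 15.5% of all genes, with *Top2a* at 1.14, *Mki67* at 1.00 and *Prc1* at 0.95, and 0 fell by limma, adjusted or not. With *Xist* as a covariate 22, 22 and 14 of these 22 passed, beside the same 4500, 6451 and 3905 genes. Without the 4 hearts fewer of the 22 passed, and their medians were -1.67, -1.14 and 0.48.

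**Figure D3:**
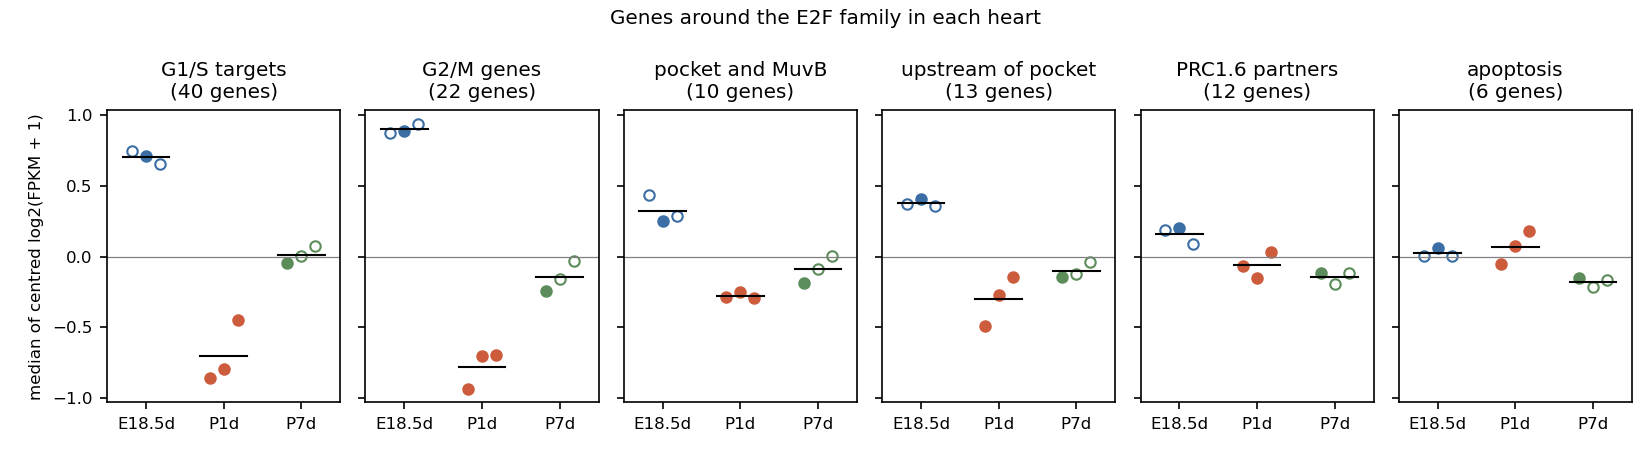
Median of log2(FPKM + 1), each gene centred on its mean over the 9 hearts (vertical axis), for 6 gene lists in each heart of E18.5d, P1d and P7d, with black lines for the mean of 3 hearts and open circles for the 4 hearts with *Xist*. The median of the 40 G1/S targets was between 0.65 and 0.75 in the E18.5d hearts and between -0.86 and -0.45 in the P1d hearts.

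The partners of E2F6 in the PRC1.6 complex were a list of 12 genes, of which 5 fell and 1 rose between E18.5d and P1d (median -0.26) and 3 fell and 0 rose between P1d and P7d by limma (median -0.09; 1 higher at an unadjusted p under 0.05). Both counts lie near the background, with 6 of 12 past the threshold beside 46.0% of all genes and 3 of 12 lower beside 28.6%. By the median of ratios 2 of the 12 rose and 3 fell between P1d and P7d, with a median of 0.03. *Mga*, *Cbx3* and *Hdac2* fell across birth by 0.74, 0.58 and 0.52, and *Ring1* rose by 0.24. That rise of *Ring1* kept its call in 10 of 19 alternatives (limma, Benjamini-Hochberg adjusted p from 0.00416 to 0.301). It was lost, among others, with *Xist* as a covariate, without the 4 hearts and on leaving out any of E18.5d replicates 2 or 3 and P1d replicates 2 or 3. *Rnf2*, *Max* and *Ring1* changed by -0.78, -0.41 and -0.37 between P1d and P7d. The 4 germline genes that E2F6 is known to keep silent in somatic cells were all below the filter. *Stag3* was at most 1.23 FPKM, *Slc25a31* at most 0.55 FPKM, *Smc1b* at most 0.05 FPKM, and *Tuba3a* was 0.06 FPKM in P1d replicate 1 and listed at 0 in the other 8 hearts.

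Of the genes that mark E2F proteins for degradation, *Ccnf*, *Skp2* and *Fzr1* all fell across birth, by 2.12, 1.56 and 0.33, beside 27.6% of all genes. *Ccnf* and *Skp2*, like *E2f1*, *E2f7* and *E2f8*, rose between P1d and P7d by 1.27 and 0.74. Of 8 apoptosis genes known as E2F1 targets 6 were tested, among which *Bcl2l11* rose and *Apaf1* fell across birth. *Bcl2l11* was 11.4, 14.6 and 12.3 FPKM at E18.5d, 27.3, 23.7 and 32.2 FPKM at P1d and 17.4, 15.9 and 13.6 FPKM at P7d, highest in the hearts in which *E2f1* was lowest. It changed by 1.05 and then -0.78 (limma, Benjamini-Hochberg adjusted p = 0.000198 and 0.00123). *Apaf1* fell by 0.48 across birth, and *Sirt1* fell by 0.61 between P1d and P7d. Of the 47 changes followed from the lists that surround the E2F and DP genes, 33 did not pass without the 4 hearts, and 0 changed direction there or in any other alternative.

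For each member that passed in some comparison, the tested genes with the most similar course over the 9 hearts were found by the root mean square difference of centred log2(FPKM + 1). Nearest to *E2f1* were *Lig1*, *Kntc1* and *Mycn* (0.114, 0.116 and 0.117). Nearest to *E2f7* were *Dscc1*, *Kif18b* and *Pola1* (0.109, 0.144 and 0.148), and nearest to *E2f8* were *Ccna2*, *Ncapg* and *Exo1* (0.110, 0.113 and 0.127). These neighbours encode, among others, DNA ligase, DNA polymerase, condensin and cyclin subunits. *E2f2* lay nearest to *Fads1*, *Mrpl14* and *Nup62* (0.0576, 0.0579 and 0.0584), *E2f4* to *Cby1*, *Dis3l* and *Adgrb2* (0.0494, 0.0524 and 0.0536) and *E2f5* to *Shoc2*, *Pdzd8* and *Fem1c* (0.0494, 0.0550 and 0.0573). *E2f6* lay nearest to *Slc33a1*, *2410131K14Rik* and *Opn4* (0.0434, 0.0503 and 0.0540), and *Tfdp1* to *Lrrc8c*, *Ddx17* and *Cybc1* (0.0645, 0.0682 and 0.0702). A small difference is easier to reach for genes that change little. *Tfdp2* had its nearest neighbours in *Foxo3*, *Map3k6* and *Timp3* (0.0840, 0.0895 and 0.0953). *Foxo3*, which encodes a transcription factor that insulin signalling keeps out of the nucleus, was 17.1, 17.4 and 18.1 FPKM at E18.5d, 31.6, 41.8 and 22.2 FPKM at P1d and 17.2, 16.8 and 17.2 FPKM at P7d. As these genes were selected for likeness to a member over the same 9 hearts, the shared order of hearts follows from the selection.

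The members lie on 9 chromosomes of GRCm38 and each is annotated as protein-coding. *E2f1* (ENSMUSG00000027490.17) lies at chr2:154559407-154569892 on the minus strand, *E2f2* (ENSMUSG00000018983.9) at chr4:136172394-136196057 on the plus strand and *E2f3* (ENSMUSG00000016477.17) at chr13:29906575-29986063 on the minus strand. *E2f4* (ENSMUSG00000014859.8) lies at chr8:105297663-105305370, *E2f5* (ENSMUSG00000027552.14) at chr3:14578641-14606309 and *E2f6* (ENSMUSG00000057469.7) at chr12:16810963-16839742, all on the plus strand. *E2f7* (ENSMUSG00000020185.16) lies at chr10:110745439-110787384 on the plus strand and *E2f8* (ENSMUSG00000046179.17) at chr7:48866429-48881596 on the minus strand. *Tfdp1* (ENSMUSG00000038482.11) lies at chr8:13338751-13378448 and *Tfdp2* (ENSMUSG00000032411.15) at chr9:96196275-96323646, both on the plus strand. Exons of 3 members overlap an exon of a gene on the opposite strand. *E2f5* shares 26 bases with *1810022K09Rik* (mean 97.7 FPKM), *E2f7* shares 86 bases with *1700020G17Rik* (0.0067 FPKM) and *E2f8* shares 610 bases with *Gm2788* (0.181 FPKM). Whether fragments were counted by strand was not found in the descriptions at hand, which did not include the supplementary methods.

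E2F genes are themselves known as E2F targets, so the start regions of the members were searched for E2F words. RefSeq windows of 300 bases (GRCm38.p6, 250 before to 50 after a start) were at hand for 8 members in 12 windows, and not for *E2f4* and *E2f5*. The words TTTCCCGC, TTTGCCGC, TTTCGCGC and TTTGGCGC were searched on both strands, and 1.07%, 0.441%, 0.323% and 0.514% of the 32851 windows of all genes hold them, with 2.26% holding any. *E2f2*, *E2f3*, *E2f7* and *Tfdp1* held 1 of them, and *E2f1*, *E2f6*, *E2f8* and *Tfdp2* held none in these windows. By gene, 2.6% of 27025 genes hold one of these words in a window. Words were thus found and not found among the members that fell across birth, and *E2f3*, which did not pass, held one. The stretches are printed on the strand of the gene, with the word in capitals, to show which word each member holds and where.
E2f2, chr4:136172302-136172323, plus strand, 39 bases after the start: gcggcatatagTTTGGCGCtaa
E2f3, chr13:29986056-29986085, minus strand, 11 bases before the start, reverse complement of TTTCCCGC: ttgaaaagccgGCGGGAAAtctgagtttcg
E2f7, chr10:110745230-110745259, plus strand, 198 bases before the start, reverse complement of TTTCCCGC: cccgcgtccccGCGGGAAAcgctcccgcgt
Tfdp1, chr8:13338697-13338726, plus strand, 43 and 96 bases before its 2 starts, reverse complement of TTTCGCGC: gggcgccgaagGCGCGAAAaggcgcgcagg

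The CHR word TTTGAA, a short element known from promoters bound by the MuvB core of DREAM and MMB, was searched on both strands as well, and 17.9% of all windows hold it. It was found for *E2f2*, *E2f3* and *E2f8*, and is printed for these 3 with the word in capitals to show where it lies. In the *E2f3* window the CHR word and the E2F word do not overlap.
E2f2 at its other start, chr4:136180740-136180767, plus strand, 31 bases before the start: tagcctgtgtgTTTGAAtggtgtggaac
E2f3, chr13:29986070-29986097, minus strand, 23 bases before the start: tgcaaatatggTTTGAAaagccggcggg
E2f8, chr7:48881600-48881627, minus strand, 20 bases before the start, reverse complement: agcgggttaatTTCAAAtcgggggctgg

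A match of letters is a description and does not show binding. The starts behind the matched windows of *E2f3*, *E2f7*, *E2f8* and *Tfdp1* are the annotated start of the gene or lie 53 bases inside it, whereas the start used for *E2f1* lies 466 bases inside its gene and those for *Tfdp2* lie 62430 and 62973 bases inside. For *E2f2* the start with the E2F word lies before the annotated gene and the start with the CHR word 8388 bases inside it. Among the lists, 15 of 33 G1/S targets with a window held an E2F word, beside 1 of 18 G2/M genes (*Cdk1*) and 2 of 7 pocket and DREAM genes (*Lin52* and *Rbl1*). The words were found in 2 of 11 upstream genes (*Cdk2* and *Cdkn2a*), 1 of 9 PRC1.6 genes (*Cbx3*), 1 of 4 germline genes (*Slc25a31*), 0 of 3 degradation genes and 0 of 5 apoptosis genes.

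**Figure D4:**
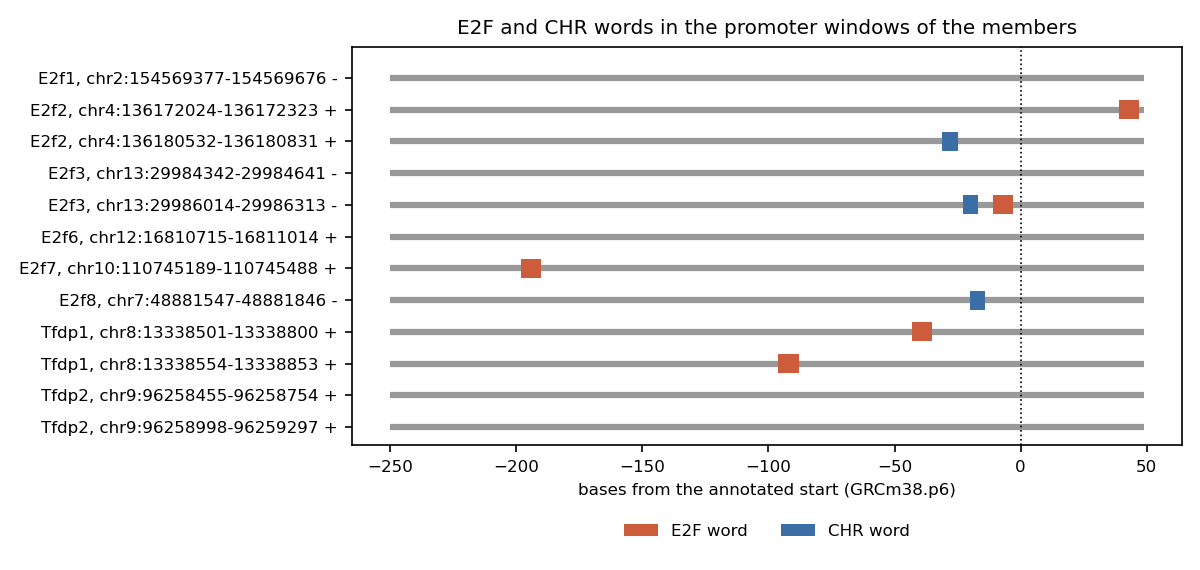
Positions of E2F words and CHR words in the 12 RefSeq windows of 8 members (horizontal axis in bases from the start, from 250 before to 50 after it). E2F words lie in windows of *E2f2*, *E2f3*, *E2f7* and *Tfdp1*, and CHR words in windows of *E2f2*, *E2f3* and *E2f8*.

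Markers of the cell types of a whole heart moved with the stages, and their part in the changes of the E2F and DP genes was not tested. The marker named as most abundant or leading is the one with the highest mean over all 9 hearts. The summed level of 6 endothelial markers, *Pecam1* the most abundant, was 375, 362 and 342 FPKM at E18.5d, 397, 426 and 388 FPKM at P1d and 441, 441 and 459 FPKM at P7d. The 6 fibroblast markers, led by *Col3a1*, summed to 1731, 1734 and 1672 FPKM, then 1406, 1834 and 1472 FPKM, then 2343, 2255 and 2318 FPKM. Of these 6, 2 were higher and 0 lower by limma at P7d than at E18.5d. The 4 epicardial markers, led by *Msln*, were between 60.6 and 71.2 FPKM at E18.5d, between 48.4 and 72.2 FPKM at P1d and between 27.9 and 33.4 FPKM at P7d. The P1d hearts, in which *E2f1*, *E2f7* and *E2f8* were lowest and *Tfdp2* highest, also had the highest neutrophil markers. The 5 neutrophil markers, led by *S100a9*, summed to 8.63, 11.5 and 5.85 FPKM at E18.5d, 46.9, 69.7 and 52.4 FPKM at P1d and 15.1, 17.3 and 19.4 FPKM at P7d, and the 5 macrophage markers, led by *C1qa*, to between 41.4 and 54.8, between 65.2 and 88.1 and between 61.8 and 69.3 FPKM, with overlap between P1d and P7d. The 5 markers of smooth muscle and pericytes, led by *Acta2*, summed to between 697 and 921 FPKM in all hearts. The sum hides opposite changes, as 2 of them were higher and 2 lower by limma at P7d than at E18.5d. The 8 erythroid markers, led by *Hbb-bs*, summed to 11101, 8420 and 22749 FPKM at E18.5d, 15705, 24733 and 12738 FPKM at P1d and 10412, 8553 and 10225 FPKM at P7d, and P1d replicate 2, the highest heart in *Tfdp2*, was also the highest in these. The 6 thymocyte markers were all under 0.5 FPKM in every heart, *Cd8b1* the most abundant, with *Ptcra* listed at 0 throughout. The 4 lung epithelium markers summed to 2.78, 9.62 and 0.44 FPKM at E18.5d and to 42.35, 0.0 and 0.14 FPKM at P1d. At P7d they summed to at most 0.23 FPKM. Of these markers *Scgb1a1* was 42.1 FPKM in P1d replicate 1, and *Sftpc* and *Nkx2-1* were under 0.5 FPKM in every heart.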

How the data were processed

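Whole-heart RNA was sequenced by the authors, who deposited 1 table of FPKM (NEBNext Ultra libraries from total RNA, STAR and GRCm38/mm10 named without version). The members, the lists and the rule for named genes (all members, up to 3 genes of each list per direction in 2 comparisons, the 3 nearest courses, the most abundant marker) were chosen with earlier results of these data known. The fit took log2(FPKM + 1) of genes whose mean over all hearts reached 1 FPKM, used limma (version 3.58.1, under R 4.3.3; eBayes with trend) on all stages in 1 model, and was tested on simulated data. p-values were adjusted by Benjamini-Hochberg over 13618 genes, with a threshold of 0.05. Depth was estimated from the spacing of low values, of which 77.5% to 86.8% lay within 0.1 of a whole fragment. Positions came from GENCODE M21 and windows from RefSeq (GRCm38.p6), with Python 3.11.15 and pandas 2.3.3. The 19 alternatives were other scalings, pseudocount and filters, the replicate block, *Xist* as a covariate, hearts left out and 2 stages at a time.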

Additional observations from a re-analysis of the deposited data

How the results depend on the processing

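Of the changes of the members under the 19 alternatives, 176 of P1d against E18.5d, 162 of P7d against E18.5d and 161 of P7d against P1d kept their direction and their side of the threshold, while 4, 13 and 16 lost a call and 6, 3 and 9 gained one. The direction turned for 8, all between P7d and E18.5d and none past the threshold. The log2 change of *E2f3* was 0.0942 by the median of ratios, 0.0693 by quantile normalization and 0.0568 by an equal sum of protein-coding nuclear genes, and on leaving out 1 heart it ran from -0.43 without P7d replicate 3 to 0.05 without P7d replicate 2 and 0.12 without P7d replicate 1. That of *E2f6* was 0.0645 by the median of ratios and 0.0223 by the equal sum, and that of *Tfdp2* was 0.0226 by the median of ratios. Of 887 values of 47 changes followed from the gene lists, 838 kept direction and call, 49 lost the call (33 of them without the hearts with *Xist*) and 0 turned.

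Without the hearts with *Xist*, which leaves fewer hearts, 823, 194 and 179 genes, 4, 0 and 0 members and 22, 0 and 0 G1/S targets passed in the comparisons in the same order. With *Xist* as a covariate 3905 genes passed between P7d and P1d. With a mean of at least 5 FPKM, fewer members are tested and 3 passed between P7d and E18.5d. On leaving out 1 heart at a time, between 5157 and 6322, 5545 and 7167, and 4837 and 5877 genes passed, with 8 to 9, 5 to 7 and 5 to 7 members and 38 to 40, 29 to 39 and 31 to 36 G1/S targets.

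With the replicate number as a replicate block, 6173, 6667 and 5857 genes, 9, 6 and 5 members and 40, 38 and 34 G1/S targets passed. In a check of pairing, correlations between hearts of the same number ran from -0.055 to 0.112 over 9 pairs. Between hearts of different stage and number they ran from -0.182 to 0.129. No pairing by number was seen, which does not exclude one.

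The sex labels of 4 hearts do not hold, and without these hearts the changes of most members were not past the threshold. The scale of the deposited values moves with the stage, which bears most on P7d against E18.5d. Depth was estimated, and values at low FPKM rest on few fragments. The cause of each change between settings was not tested.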

Other observations

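*E2f3* passed in no comparison as fitted in the report, though its change across birth passed in 6 of 19 alternatives. Its nearest courses, looked at after its values were seen, were those of *Nup160*, *Gm37390* and *Mycbp* (root mean square differences of 0.152, 0.159 and 0.171). In all 3 genes P7d replicate 3 stood above the other hearts of its stage, which follows from their selection for likeness to *E2f3* over the same hearts. *Nup160*, which encodes a nucleoporin, was 7.00, 8.02 and 13.1 FPKM at P7d, *Gm37390* was 2.77, 2.82 and 4.66 FPKM, and *Mycbp*, which encodes a MYC-binding protein, was 7.03, 6.44 and 12.5 FPKM.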
